A study of Mus musculus with 20 samples.

Results

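The collagens, laminins and integrins are the chains of the extracellular matrix and of its receptors, and their transcripts were followed through the first day of germ cell induction in mouse cells. Members were the genes whose platform symbol names a collagen chain, a laminin chain or an integrin subunit, together with Fn1, Nid1, Nid2, Hspg2 and Sparc. The rule uses gene names only, and it found 81 genes among the 18193 genes with a single-gene probe set, on 166 probe sets. Each gene was read at its probe set with the highest mean over the 20 arrays. There were 42 collagen chains, 10 laminin chains, 16 integrin alpha subunits, 8 integrin beta subunits and 5 other matrix genes.

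RNA came from 5 male embryonic stem cell lines of the mixed strain C57BL/6;129, each measured at 2 stages on 2 arrays. All 5 lines carry the reporters Blimp1-mVenus and stella-ECFP and the doxycycline-dependent activator Rosa26-rtTA, and the parental line carries nothing else. The other lines add piggyBac transgenes behind a tetOx8-mCMV promoter, each joined to an IRES-beta geo selection cassette: Avi-Blimp1 in the Blimp1 line, 3xFLAG-Prdm14 in the line labelled Prdm14, V5-Tfap2c in the line labelled Tfap2c, and all 3 of them in the 3-factor line. The first stage is the epiblast-like cell (EpiLC), a primed pluripotent state, after 36 h of differentiation. The second stage is day 1, when those cells had been aggregated for 24 h at 2000 cells per well in Lipidure-coated plates, in GK15 medium with 1.5 µg/ml doxycycline. Doxycycline switches the transgenes on, so aggregation, medium and doxycycline all change between the stages, and the parental aggregates received doxycycline too. Each transgenic line is 1 clone, so the factor and the clone cannot be told apart, and aggregates without doxycycline were not analysed here.

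A basement membrane is a sheet built from laminin trimers and a collagen IV network, which nidogens and the proteoglycan perlecan link together. Integrins are alpha and beta pairs in the cell membrane that bind this sheet or fibronectin and couple it to actin. The early epiblast rests on such a membrane, and germ cell precursors leave the epithelium in which they arise.

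The factors' own genes were read first. Prdm1, which encodes Blimp1, stood at a mean log2 signal of 4.96 in parental aggregates, 6.36 in the Blimp1 line, 8.67 in the 3-factor line and 7.31 in the line labelled Prdm14, which carries no Blimp1 transgene. Tfap2c stood at 6.34 in parental aggregates, 11.57 in the 3-factor line, 5.94 in the line labelled Tfap2c, and 9.60 and 10.80 in the Blimp1 and labelled Prdm14 lines, which carry no Tfap2c transgene. Tfap2c was thus not raised above the parental level in the line labelled for it. Prdm14 stood at 3.5 on day 1 in the line labelled Prdm14, below its own EpiLCs at 3.82 and parental aggregates at 3.63, and no day 1 group exceeded 4.04. Both lines are therefore named by their labels only. Whether these probe sets read the transgenes was not tested. The epiblast marker Pou5f1 stood between 12.16 and 12.52 in all 10 groups. Arrays of a group correlated at 0.9659 to 0.9758 over all probe sets, and their number, 2, limits the precision of every value.

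A gene was tested when its highest group mean reached a log2 signal of 3.95, and 62 of the 81 members passed. Of these, 41 stood at or above that level in all 10 groups, and 21 had at least 1 group mean below it, so a change of theirs starts or ends near the dim end of the array. The lowest highest-group mean among those that passed was 3.96. The 19 others, with group means from 0.0 to 3.94, were Col10a1, Col11a2, Col14a1, Col15a1, Col17a1, Col1a1, Col20a1, Col24a1, Col4a3, Col4a4, Col6a5, Itga10, Itga2, Itga8, Itgax, Itgb2, Itgb4, Lama2 and Lama4. A member was called when it changed by at least 1 on the log2 scale with a limma p below 0.05 after Benjamini-Hochberg adjustment over all 14010 genes tested. Over 20 comparisons, 20 of the 62 members were called at least once (32.3%) and 42 never, against 21.5% of the 14010 genes. Itgb3, Col8a2, Col9a2 and Lamc3 reached the filter level in a single group, so a difference that involves that group is partly set by the filter and is given as a description.

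The sequence upstream of the start site is shown for the members with a called difference from the parental line and a window, Lama5 as the largest that fell and Nid1 as the largest that rose, and for Itgb8, which rose in all 5 lines. The windows are the 250 bases before the RefSeq start (GRCm38.p6), and 58 of the 81 members have one; Fn1, Itga6, Lamc1, Nid2, Col9a3, Lama3 and Itgb3 do not. Capitals mark GGGCGG, the Sp1 motif, on either strand. Lama5 lies at chr2:180225860-180226109 (minus strand), Nid1 at chr13:13437352-13437601 (plus strand) and Itgb8 at chr12:119238277-119238526 (minus strand).
Lama5: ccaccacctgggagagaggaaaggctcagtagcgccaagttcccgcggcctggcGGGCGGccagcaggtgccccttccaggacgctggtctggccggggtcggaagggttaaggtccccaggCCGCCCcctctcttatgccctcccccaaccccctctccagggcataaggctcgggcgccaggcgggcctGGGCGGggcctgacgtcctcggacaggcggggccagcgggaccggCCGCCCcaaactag
Nid1: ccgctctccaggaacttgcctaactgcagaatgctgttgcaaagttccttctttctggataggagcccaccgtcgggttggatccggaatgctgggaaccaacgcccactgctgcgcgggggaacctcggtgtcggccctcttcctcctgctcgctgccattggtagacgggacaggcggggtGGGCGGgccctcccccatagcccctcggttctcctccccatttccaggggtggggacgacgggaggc
Itgb8: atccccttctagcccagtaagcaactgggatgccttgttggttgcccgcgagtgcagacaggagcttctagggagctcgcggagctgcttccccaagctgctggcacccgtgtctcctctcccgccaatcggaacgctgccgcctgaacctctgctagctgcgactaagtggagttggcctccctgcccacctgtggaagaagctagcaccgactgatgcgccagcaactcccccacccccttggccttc
The Lama5 window holds 4 matches to GGGCGG, the Nid1 window 1 and the Itgb8 window 0, against 32.7% of all 32851 promoter windows of this length with at least 1. None of the 3 windows holds TATAAA (the TATA box, in 12.4% of windows), GCCNNNGGC (AP-2, the family of Tfap2c, in 13.7%), GTGAAAG (the core of a Blimp1 site, in 3.57%) or GGTCTCTAA (Prdm14, in 0.24%). All motifs were searched on both strands, and GGGCGG and GCCNNNGGC can share bases. These are letter matches and not measured sites.

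The parental line shows what aggregation with doxycycline does without a factor transgene. The integrin subunit Itgb8 and the collagen chains Col9a3 and Col4a1 rose, and the laminin chain Lama3 and the collagen chain Col26a1 fell. That is 5 of 62 members called (3 rose, 2 fell), or 8.06%, against 6.57% of all genes tested (3.97% rose, 2.61% fell). The members' median log2 change was −0.02 and that of all genes 0.05. Cells were measured in bulk, so fewer cells of a type and less RNA per cell cannot be told apart in this or any later comparison.

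Itgb8 encodes a subunit that pairs with alpha v and is known for the activation of latent TGF-beta. Its log2 signal on the 2 arrays was 3.77 and 4.01 in parental EpiLCs and 6.61 and 6.86 in parental aggregates. It was 4.2 and 4.52 against 6.22 and 6.73 in the 3-factor line, and 4.63 and 4.19 against 7.64 and 7.75 in the Blimp1 line. All day 1 arrays of these lines lay above all of their EpiLC arrays. In the line labelled Prdm14 the values were 2.93 and 2.87 against 6.11 and 6.37, and in the line labelled Tfap2c 4.37 and 4.19 against 6.82 and 6.70. Itgb8 thus rose in every line, by 2.85 ± 0.19 (SE, limma adjusted p = 6e-07) in the parental line, 2.12 in the 3-factor line, 3.29 in the Blimp1 line, 2.48 in the line labelled Tfap2c and 3.34 in the line labelled Prdm14. The EpiLC means of the parental and labelled Prdm14 lines were below the filter level, so the size of the rise there starts from a dim probe set.

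Lama3, an alpha chain of laminin in epithelia such as skin, moved the other way. Its arrays read 7.01 and 7.06 in parental EpiLCs and 5.14 and 5.13 in parental aggregates, and 6.99 and 6.85 against 4.62 and 4.58 in the 3-factor line. They read 6.72 and 6.86 against 4.5 and 5.05 in the Blimp1 line, 7.08 and 7.03 against 5.61 and 5.58 in the line labelled Prdm14, and 6.52 and 6.71 against 4.21 and 4.88 in the line labelled Tfap2c. No stage pair overlapped. Lama3 fell by 1.90 ± 0.19 (limma adjusted p = 1.45e-05) in the parental line and by 2.32, 2.02, 1.46 and 2.07 in the 3-factor, Blimp1 and labelled Prdm14 lines and the line labelled Tfap2c. Averaged with its dim second probe set, whose highest group mean was 3.52, Lama3 kept its direction but was called in none of the parental, 3-factor, Blimp1 and labelled Prdm14 lines (−0.69, −0.81, −1.06 and −0.18), and it was called in the line labelled Tfap2c (−1.89).

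Col9a3, a chain of the cartilage collagen IX, rose in all 5 lines at its brightest probe set. Its arrays read 4.18 and 3.82 in parental EpiLCs and 5.79 and 5.91 in parental aggregates, 3.64 and 3.55 against 4.89 and 4.63 in the 3-factor line, and 4.37 and 3.71 against 5.42 and 6.10 in the Blimp1 line. They read 3.68 and 3.46 against 5.68 and 5.93 for the line labelled Prdm14, and 4.04 and 4.34 against 5.54 and 5.88 for the line labelled Tfap2c. The stages did not overlap in any line at this probe set, but the EpiLC values lie close to the filter level. The rise was 1.85 ± 0.25 (limma adjusted p = 0.000131) in the parental line, 1.17 in the 3-factor line, 1.72 in the Blimp1 line, 1.52 in the line labelled Tfap2c and 2.23 in the line labelled Prdm14. A second probe set, with a highest group mean of 5.30, gave 0.88 in the parental line, 0.08 in the 3-factor line, 0.98 in the Blimp1 line, 0.59 in the line labelled Tfap2c and 0.94 in the line labelled Prdm14. With all probe sets averaged the change was 0.79, 0.03 and 1.00 in the parental, 3-factor and labelled Prdm14 lines, where the call was lost (limma adjusted p = 0.135, 0.971 and 0.0575). Itgb8, Lama3 and Col9a3 were the 3 members called in the same direction in all 5 lines, 4.84% of the 62, against 283 of 14010 genes, or 2.02%. Of these 3, Lama3 and Col9a3 rest on their brightest probe set. Itgb8 has only 1 probe set, so averaging probe sets could not test it.

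**Figure D1:**
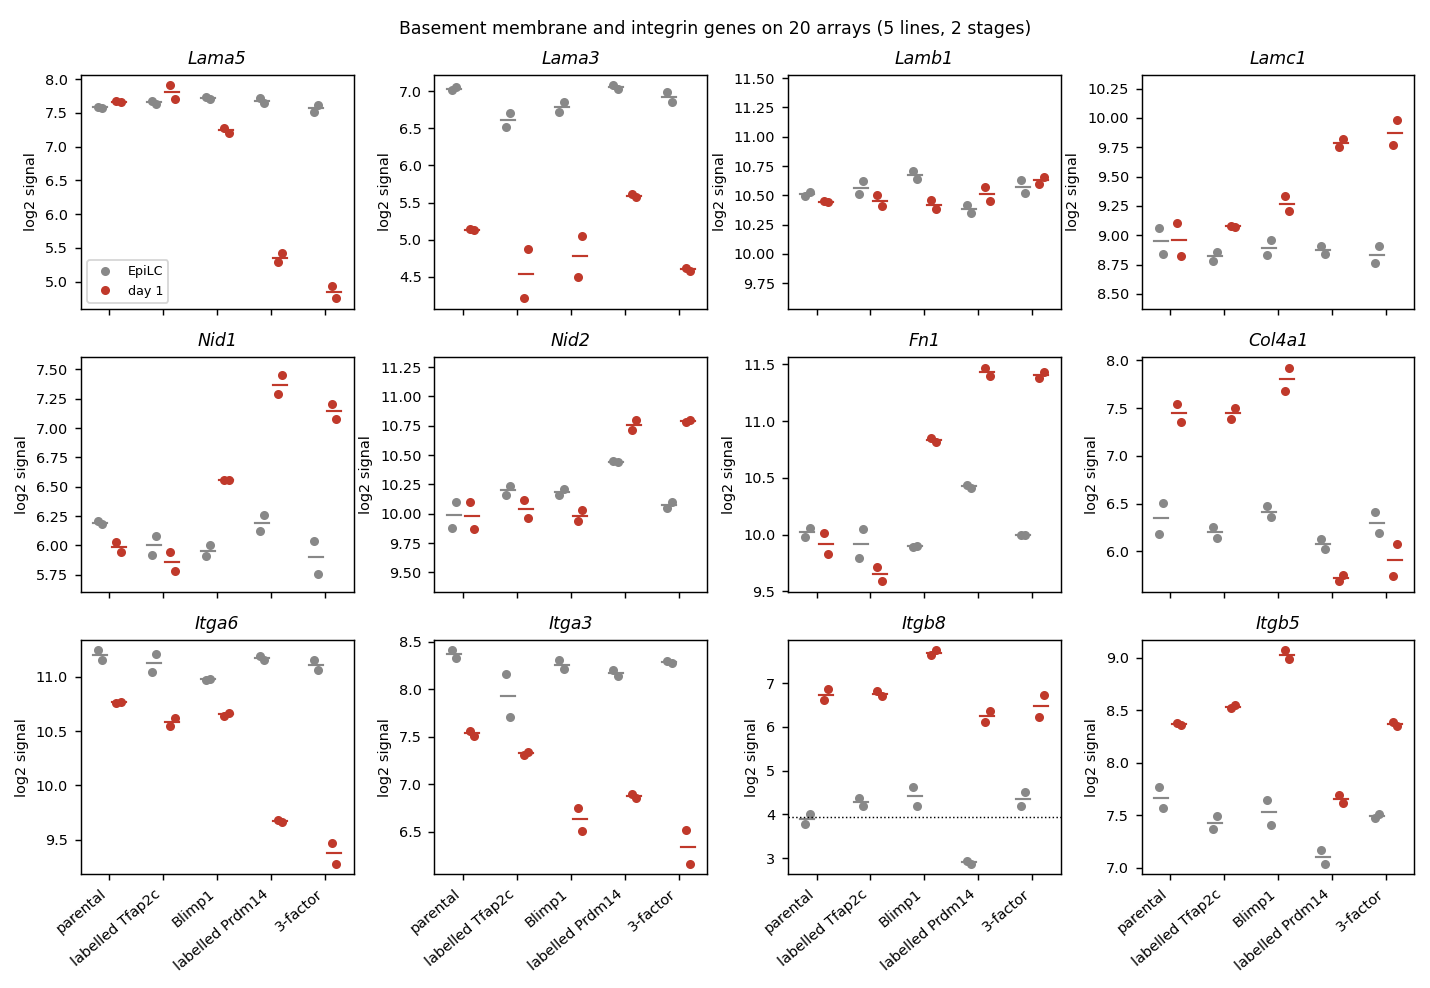
Log2 signal of 12 basement membrane, fibronectin and integrin genes, with 1 point per array, a bar at each group mean (n = 2), EpiLCs in grey and day 1 aggregates in red for the 5 lines; the dotted line is the filter level of 3.95. Itgb8 lies higher and Lama3 lower on day 1 in all lines, while Lama5, Col4a1 and Itga6 are lower and Fn1, Nid1 and Lamc1 higher on day 1 in the labelled Prdm14 and 3-factor lines than in the parental line.

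The stage comparison of every transgenic line, also the line labelled Tfap2c, called more members than the 5 of the parental line. In the 3-factor line 12 of 62 were called (6 rose, 6 fell), 19.4%, against 10.6% of all genes (5.72% rose, 4.86% fell). Those that rose include Itgb3, which passed the filter through the aggregates of this line alone, so this share is partly set by the filter. In the Blimp1 line 10 were called (7 rose, 3 fell) against 9.68% of all genes (5.75% rose, 3.93% fell). In the line labelled Prdm14 10 were also called (5 rose, 5 fell), against 7.99% (4.28% rose, 3.71% fell). In the line labelled Tfap2c 7 were called (6 rose, 1 fell) against 6.10% of all genes (3.55% rose, 2.54% fell). In that line 0 members had a stage change that differed from the parental one by the call rule. The 18S ribosomal RNA probe set, a control on the array, read 10.79 to 11.67 in EpiLCs and 11.72 to 12.32 on day 1, and its part in the stage differences was not tested. Summed markers of fibroblasts, on a linear scale, were 369 to 723 in EpiLCs and 740 to 1997 on day 1, with Tagln rising in all 5 lines and Acta2 in the Blimp1 and labelled Prdm14 lines and the line labelled Tfap2c. In the same list Dcn and Thy1 fell in the 3-factor line (8.09 to 6.18 and 6.24 to 4.03), Thy1 fell in the line labelled Prdm14 and Dcn in the line labelled Tfap2c. The group means of Twist2 and S100a4 were between 0.03 and 2.28, and 4 or 5 of the 10 markers were at or above the filter level in each group. Their part in the result was not tested.

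The aggregates of each transgenic line were then compared with parental aggregates, which had received doxycycline too. The 3-factor line had lower Lama5, Col4a1, Itga6, Col5a1, Itga3, Col9a3 and Itga4 and higher Fn1 and Nid1, 9 of 62 members (14.5%), against 6.62% of all genes called (2.78% rose, 3.85% fell). The line labelled Prdm14 had 5 members called (8.06%), Lama5, Col4a1 and Itga6 lower and Nid1 and Fn1 higher, against 5.37% of all genes (2.18% rose, 3.20% fell). All 5 are among the 9 of the 3-factor line, but both comparisons use the same parental arrays. No member was called in the Blimp1 line, where 2.59% of all genes were, although 18 members (29.0%) had an unadjusted p under 0.05 and 11 (17.7%) an adjusted one, below the size limit, against 30.0% and 17.2% of all genes. No member was called in the line labelled Tfap2c, where 0.0286% of all genes were, and 7 (11.3%) had an unadjusted p under 0.05, against 6.62% of all genes. The median log2 difference of the 62 members was 0.01 for the 3-factor line (all genes −0.02), 0.06 for the line labelled Prdm14 (all genes −0.04) and 0.10 for the Blimp1 line (all genes 0.02).

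**Figure D2:**
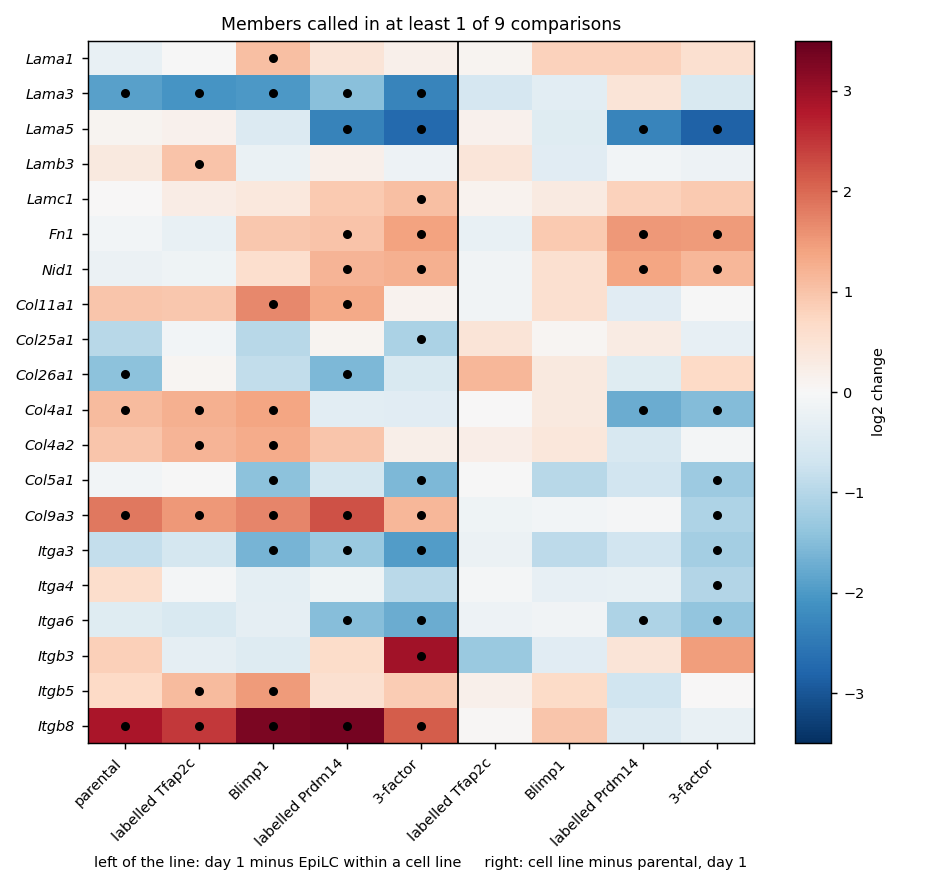
Log2 changes of the 20 members called in at least 1 of 9 comparisons, as colour from blue (lower) to red (higher), with a black dot where the change was called; the 5 left columns are day 1 minus EpiLC within a line and the 4 right columns are a line minus the parental line on day 1. Itgb8, Lama3 and Col9a3 carry dots in all 5 stage columns, and the dots on the right are in the Prdm14 and 3-factor columns.

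Among the laminins, Lama5, an alpha chain of laminin in the embryonic basement membrane, had the largest difference of any member in both lines. It read 7.59 and 7.57 in parental EpiLCs and 7.67 and 7.66 in parental aggregates. On day 1 it read 4.93 and 4.75 in the 3-factor line, 5.29 and 5.42 in the line labelled Prdm14, 7.28 and 7.2 in the Blimp1 line and 7.91 and 7.71 in the line labelled Tfap2c. The 4 arrays of the 3-factor and labelled Prdm14 lines lay below all other day 1 arrays. Relative to the parental line Lama5 fell by 2.83 ± 0.08 (limma adjusted p = 6.55e-10), or 7.09-fold on the linear scale, in the 3-factor line, and by 2.31 ± 0.08 (adjusted p = 3.99e-09), or 4.96-fold, in the line labelled Prdm14. The Blimp1 line differed by −0.42 (limma adjusted p = 0.00401), which is below the size limit. A second bright probe set of Lama5 gave −2.52 in the 3-factor line and −2.79 in the line labelled Prdm14, and another, with a highest group mean of 3.98, gave −2.11 and −0.41. Against their own EpiLC arrays, which read 7.52 to 7.72, Lama5 fell by 2.73 in the 3-factor line and by 2.33 in the line labelled Prdm14.

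The other chains of those laminin trimers did not follow Lama5. Lamc1, the gamma chain of most laminins, read 9.10 and 8.82 in parental aggregates, 9.77 and 9.98 in the 3-factor line, 9.75 and 9.82 in the line labelled Prdm14, and 9.33 and 9.21 in the Blimp1 line. Its differences from the parental line were 0.92 ± 0.11 in the 3-factor line and 0.82 ± 0.11 in the line labelled Prdm14 (limma adjusted p = 5.09e-05 and 0.000154), just under the size limit. Lamb1, the beta chain, read 10.38 to 10.66 on all 10 day 1 arrays and differed from the parental line by −0.03 to 0.18 (limma adjusted p of at least 0.0656). Against its own EpiLCs Lamc1 rose by 1.04 ± 0.11 in the 3-factor line (limma adjusted p = 1.03e-05), from 8.76 and 8.91, a call lost without the second day 1 or the first EpiLC array and with quantile normalization (0.95). A second probe set gave 0.16 for this change, and the average of both gave 0.60 without a call.

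The remaining laminin calls were in stage comparisons and near the filter level. Lama1, the alpha chain of laminin in the earliest basement membranes, read 3.69 and 4.16 in EpiLCs and 5.11 and 4.82 in aggregates of the Blimp1 line, and rose by 1.04 ± 0.30 (limma adjusted p = 0.015) from a mean below the filter level. Lamb3, the beta chain that partners Lama3, read 3.94 and 3.98 against 4.91 and 5.02 in the line labelled Tfap2c and rose by 1.00 ± 0.25 (limma adjusted p = 0.00764). Both calls were lost when single arrays were left out, Lama1 without replicate 1 of either stage (and with median centring or quantile normalization, at 0.96 and 0.95) and Lamb3 without the second day 1 or the first EpiLC array.

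Fibronectin and nidogen transcripts were higher in the labelled Prdm14 and 3-factor lines. Fn1, which encodes fibronectin, read 10.01 and 9.83 in parental aggregates, 11.38 and 11.43 in the 3-factor line, 11.47 and 11.40 in the line labelled Prdm14, 10.85 and 10.82 in the Blimp1 line, and 9.71 and 9.59 in the line labelled Tfap2c. The arrays of the 3 first-named factor lines lay above the parental arrays without overlap. Fn1 rose by 1.49 ± 0.09 (limma adjusted p = 1.05e-07) in the 3-factor line and by 1.51 ± 0.09 (adjusted p = 1.39e-07) in the line labelled Prdm14. In the Blimp1 line the difference was 0.92 ± 0.09 (limma adjusted p = 2.63e-05), below the size limit. Its second probe set gave 1.99, 1.94 and 1.37 for the 3-factor, labelled Prdm14 and Blimp1 lines. In EpiLCs Fn1 read 9.98 and 10.06 in the parental line, and its mean was already 0.41 higher in the line labelled Prdm14 (limma adjusted p = 0.232). Against its own EpiLCs Fn1 rose by 1.41 in the 3-factor line and by 1.01 in the line labelled Prdm14. In the latter the call was lost without the first day 1 or the second EpiLC array and with arrays centred on their medians.

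Nid1, which encodes nidogen 1, the linker of laminin to collagen IV, read 6.03 and 5.94 in parental aggregates. It read 7.21 and 7.08 in the 3-factor line, 7.29 and 7.45 in the line labelled Prdm14, 6.56 and 6.56 in the Blimp1 line and 5.94 and 5.78 in the line labelled Tfap2c. The order of the lines was that of Fn1, with the line labelled Tfap2c within 0.12 of the parental mean. Nid1 rose by 1.16 ± 0.10 (limma adjusted p = 4.3e-06) in the 3-factor line and 1.39 ± 0.10 (adjusted p = 1.3e-06) in the line labelled Prdm14, with 0.57 in the Blimp1 line (adjusted p = 0.00261). Against their own EpiLCs the rise was 1.25 in the 3-factor line and 1.18 in the line labelled Prdm14. With the 2 dim probe sets averaged in, the stage change was 0.94 and 0.65 and the day 1 difference in the line labelled Prdm14 0.81, all without a call. Nid2, its paralogue, read 10.10 and 9.87 in parental aggregates, 10.78 and 10.80 in the 3-factor line and 10.71 and 10.80 in the line labelled Prdm14. Its differences were 0.81 and 0.77 (limma adjusted p = 3.36e-05 and 6.17e-05), below the size limit, with a mean 0.46 higher in the line labelled Prdm14 already in EpiLCs (adjusted p = 0.182). Hspg2, which encodes perlecan, differed by 0.03 in the line labelled Prdm14 and by 0.51 in the Blimp1 line (limma adjusted p = 0.922 and 0.0469), and Sparc, a collagen-binding matrix protein, by −0.41 to 0.20 over the 4 lines, with limma adjusted p of at least 0.261.

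Among the collagens, Col4a1, a chain of the basement membrane collagen IV, separated the lines on day 1. It read 6.18 and 6.51 in parental EpiLCs and 7.54 and 7.35 in parental aggregates. On day 1 it read 5.74 and 6.08 in the 3-factor line, 5.69 and 5.75 in the line labelled Prdm14, 7.68 and 7.92 in the Blimp1 line and 7.39 and 7.5 in the line labelled Tfap2c. The rise of the other lines was not seen in the 3-factor and labelled Prdm14 lines, whose day 1 arrays lay below their own EpiLC arrays. Col4a1 rose by 1.10 ± 0.14 (limma adjusted p = 8.31e-05) in the parental line, 1.39 in the Blimp1 line and 1.25 in the line labelled Tfap2c, against −0.39 in the 3-factor line and −0.36 in the line labelled Prdm14. Relative to parental aggregates it fell by 1.53 ± 0.14 (limma adjusted p = 5.13e-06) in the 3-factor line and by 1.73 ± 0.14 (adjusted p = 2.62e-06) in the line labelled Prdm14. Its second probe set gave −1.16 and −1.37. The parental stage call was lost without the first EpiLC array and with both probe sets averaged. The stage call in the line labelled Tfap2c was also lost with both averaged.

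Col4a2, the partner chain of Col4a1, starts 21 bases from it on the opposite strand in the RefSeq table. It read 3.22 and 3.25 in EpiLCs and 4.24 and 4.82 in aggregates of the Blimp1 line, and 3.06 and 3.30 against 4.51 and 4.24 in the line labelled Tfap2c. It rose in these lines by 1.29 ± 0.38 and 1.2 ± 0.38 (limma adjusted p = 0.0153 and 0.0296) from below the filter level, and was at 0.97 in the parental line (adjusted p = 0.0679). The call in the Blimp1 line was lost without the second day 1 array or either EpiLC array, and that in the line labelled Tfap2c without any 1 of its 4 arrays. On day 1 Col4a2 differed from the parental line by −0.06 in the 3-factor line and −0.55 in the line labelled Prdm14 (limma adjusted p = 0.94 and 0.356), so the fall of Col4a1 there was not seen at the dimmer probe set of its partner.

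Col5a1, a chain of the fibril collagen V, read 5.65 and 5.62 in parental aggregates, 4.31 and 4.44 in the 3-factor line, 4.56 and 4.75 in the Blimp1 line and 4.81 and 5.10 in the line labelled Prdm14. The 6 arrays of these factor lines lay below both parental arrays. Col5a1 fell by 1.26 ± 0.21 (limma adjusted p = 0.000661) in the 3-factor line, and the differences of −0.98 and −0.68 in the Blimp1 and labelled Prdm14 lines (adjusted p = 0.00738 and 0.0336) were below the size limit. From EpiLC arrays at 5.89 and 6.03 in the 3-factor line and 5.97 and 6.21 in the Blimp1 line it fell by 1.58 and 1.44. A second probe set, with a highest group mean of 5.19, showed −0.39, −0.31 and −0.08 for the 3-factor, Blimp1 and labelled Prdm14 lines on day 1. Its change from EpiLC was 0.21 in the 3-factor line and −0.17 in the Blimp1 line. The size on day 1 and the fall from EpiLC thus rest on the brighter probe set. Col9a3 fell by 1.09 ± 0.25 (limma adjusted p = 0.00597) in the 3-factor line relative to parental aggregates, and that call was lost without the second 3-factor array.

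The other called collagens were close to the filter level. Col11a1, a chain of the cartilage collagen XI, read 2.55 and 3.98 in EpiLCs and 4.88 and 4.98 in aggregates of the Blimp1 line, and 2.35 and 2.99 against 3.86 and 4.12 in the line labelled Prdm14. It rose by 1.67 ± 0.42 and 1.32 ± 0.42 (limma adjusted p = 0.00704 and 0.0293). Col26a1 read 4.33 and 4.53 in EpiLCs and 3.30 and 2.68 in aggregates of the parental line, and 4.43 and 3.81 against 2.83 and 2.28 in the line labelled Prdm14. It fell by 1.44 ± 0.38 and 1.56 ± 0.38 (limma adjusted p = 0.0113 and 0.00675). Col25a1, a membrane-spanning collagen, read 5.37 and 5.15 against 3.97 and 4.31 in the 3-factor line and fell by 1.12 ± 0.39 (limma adjusted p = 0.0378). The Col25a1 call was lost whichever of the 4 arrays compared was left out. The Col26a1 call was lost without the second array of either stage in the parental line, and without the second day 1 or the first EpiLC array in the line labelled Prdm14. The Col11a1 call was lost without the first EpiLC array in both lines, and without either day 1 array in the line labelled Prdm14. With probe sets averaged, the Col25a1 call, both Col26a1 calls and the Col11a1 call in the line labelled Prdm14 were lost too. The 24 collagen chains that passed the filter and were never called had group means from 1.26 to 10.97 and day 1 differences from the parental line between −0.82 and 1.35. Col18a1, a basement membrane collagen among them, stood at 10.04 to 10.97.

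Itga6 was lower in 2 of the 4 transgenic lines and Itga3 in 1 by the call rule, and the other laminin receptor subunit Itga7 was called in none (−0.17 to 0.57 on day 1). Itga6, which pairs with beta 1 or beta 4 as a laminin receptor, read 11.24 and 11.15 in parental EpiLCs and 10.76 and 10.77 in parental aggregates. On day 1 it read 9.47 and 9.28 in the 3-factor line, 9.68 and 9.66 in the line labelled Prdm14, 10.64 and 10.67 in the Blimp1 line and 10.55 and 10.62 in the line labelled Tfap2c. The arrays of the 3-factor and labelled Prdm14 lines lay below all others. Itga6 fell by 1.39 ± 0.07 (limma adjusted p = 5.72e-08) in the 3-factor line and by 1.09 ± 0.07 (adjusted p = 6.16e-07) in the line labelled Prdm14 relative to parental aggregates. Its second probe set gave −1.33 and −1.13. Against their own EpiLCs, at 11.06 to 11.19, these lines fell by 1.73 and 1.50.

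Itga3, a second laminin receptor subunit, read 8.41 and 8.33 in parental EpiLCs and 7.56 and 7.51 in parental aggregates. On day 1 it read 6.52 and 6.16 in the 3-factor line, 6.75 and 6.51 in the Blimp1 line, 6.90 and 6.85 in the line labelled Prdm14 and 7.31 and 7.34 in the line labelled Tfap2c. All factor line arrays lay below the parental arrays, and those of the 3-factor line overlapped those of the Blimp1 line. Itga3 fell by 1.2 ± 0.14 (limma adjusted p = 4.16e-05) in the 3-factor line, and was at −0.91 in the Blimp1 line and −0.66 in the line labelled Prdm14 (adjusted p = 0.000962 and 0.00421). Against their own EpiLCs the 3-factor, Blimp1 and labelled Prdm14 lines fell by 1.95, 1.63 and 1.29. Both other Itga3 probe sets, with highest group means of 2.94 and 2.16, read 1.72 and 0.48 higher in the 3-factor line on day 1, and the average of all of them reversed the sign to 0.34 (limma adjusted p = 0.634).

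Itga4, the subunit that binds fibronectin and VCAM1, read 4.30 and 4.76 in parental aggregates and 3.37 and 3.63 in the 3-factor line. It fell by 1.03 ± 0.22 (limma adjusted p = 0.00332) to below the filter level, and the call was lost without the first 3-factor or the second parental array. Its other probe sets, with highest group means of 2.53 to 3.14, gave 0.52, −1.82, 0.18 and −0.72. The Itga4 call was also lost with all 5 probe sets averaged (−0.57) and with only the arrays compared. Itgav, the alpha v subunit, read 8.85 to 9.43 on all 20 arrays, and Itga5, the alpha subunit of the fibronectin receptor, read 4.08 to 5.22. Itgav differed from the parental line by 0.23 in the 3-factor line and 0.29 in the Blimp1 line (limma adjusted p = 0.0329 and 0.0154), and Itga5 by −0.19 to −0.13 over the 4 lines.

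Of the beta subunits, Itgb1, the partner of most alpha chains that bind matrix, read 7.42 to 7.82 in EpiLCs and 7.89 to 8.45 on day 1. Its stage differences of 0.44 to 0.67 had limma adjusted p from 0.0026 to 0.03 in the 5 lines and stayed below the size limit, and on day 1 no line differed from the parental line by more than 0.25. Itgb5, which pairs with alpha v, read 8.38 and 8.36 in parental aggregates, 9.07 and 8.99 in the Blimp1 line, 7.69 and 7.62 in the line labelled Prdm14, and 8.39 and 8.35 in the 3-factor line. The Blimp1 and labelled Prdm14 lines lay on opposite sides of the parental line, by 0.66 and −0.71 (limma adjusted p = 0.000396 and 8.89e-05), and the 3-factor arrays overlapped the parental ones. Against EpiLC arrays at 7.65 and 7.41 in the Blimp1 line and 7.37 and 7.49 in the line labelled Tfap2c, Itgb5 rose by 1.50 ± 0.09 and 1.10 ± 0.09. All 4 probe sets of Itgb5 gave the same signs in the Blimp1 and labelled Prdm14 lines on day 1.

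Itgb3, the beta subunit of the vitronectin receptor, read 2.98 and 0.91 in EpiLCs and 4.72 and 5.04 in aggregates of the 3-factor line. It passed the filter through these aggregates alone, so the difference of 2.94 ± 0.51, one of the calls counted above, is given as a description. It was 1.90 without the second EpiLC array, 1.52 with both probe sets averaged and 0.10 at the second probe set. Against parental aggregates, at 3.44 and 3.38, the difference was 1.47, and 0.10 at the second probe set. Itgb8 on day 1 was 0.96 higher in the Blimp1 line than in the parental line (limma adjusted p = 0.00471), below the size limit.

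**Figure D3:**
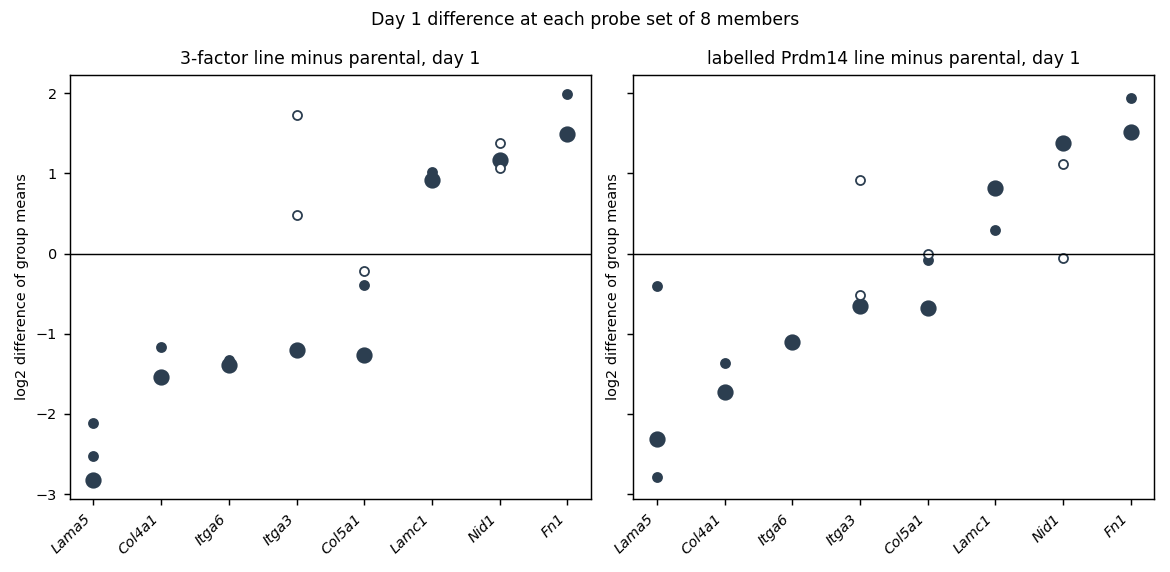
Difference of group means (log2) between a line and the parental line on day 1 at every probe set of 8 members, for the 3-factor line (left) and the line labelled Prdm14 (right); the larger point is the probe set reported and open points are probe sets whose highest group mean is below 3.95. Filled points of Lama5, Col4a1, Itga6 and Fn1 lie on the same side of 0 in both panels, while the dim probe sets of Itga3 lie above 0 in the 3-factor line.

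Before doxycycline no member differed from the parental line by the call rule. With so few arrays in a group, this does not show that the lines were alike. The share of members with an unadjusted p under 0.05 was above that of all genes in every transgenic line. No member was called in EpiLCs in any of the 4 lines by limma, against 0.0143% of all genes in the 3-factor line, 0.0785% in the Blimp1 line, 0.0286% in the line labelled Tfap2c and 0.0357% in the line labelled Prdm14. At an unadjusted p under 0.05 there were 7 members in the 3-factor line, 8 in the Blimp1 line, 8 in the line labelled Tfap2c and 9 in the line labelled Prdm14. These are 11.3%, 12.9%, 12.9% and 14.5% of the members, against 7.47%, 10.8%, 7.70% and 5.85% of all genes. Col18a1, at −0.57 ± 0.08 in the 3-factor line, was the 1 member with a limma adjusted p under 0.05 (0.0224). Itgb8 was at −0.99 in EpiLCs of the line labelled Prdm14 (limma adjusted p = 0.15), where both arrays were below the filter level.

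**Figure D4:**
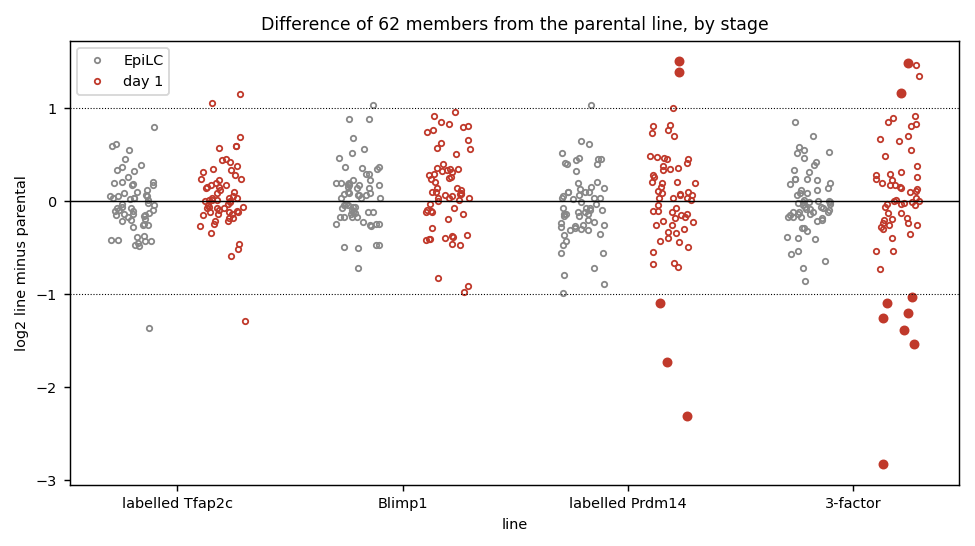
Difference of the 62 tested members from the parental line (log2, vertical axis) in EpiLCs (grey) and on day 1 (red) for the 4 transgenic lines, with filled points for called members and dotted lines at the size limit of 1. Filled points are on day 1 in the labelled Prdm14 and 3-factor lines, 5 and 9 of them.

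The test of whether a line's stage change differs from the parental one removes what the lines already showed as EpiLCs. It called 9 members in the 3-factor line (3 higher, 6 lower) against 6.94% of all genes (3.02% higher, 3.92% lower). It called 5 in the line labelled Prdm14 (2 higher, 3 lower) against 4.53% (1.93% higher, 2.60% lower), and 2 in the Blimp1 line (1 higher, 1 lower) against 2.40% (1.33% higher, 1.06% lower). It called 0 in the line labelled Tfap2c, where limma also called 0 of 14010 genes and 6 members (9.68%) had an unadjusted p under 0.05, against 4.67% of all genes. For Lama5 the stage change differed by −2.81 ± 0.12 in the 3-factor line and −2.41 ± 0.12 in the line labelled Prdm14 (limma adjusted p = 3.85e-08 and 1.62e-07), since the parental change was 0.08. For Fn1 it differed by 1.50, 1.11 and 1.04 in the 3-factor, labelled Prdm14 and Blimp1 lines (limma adjusted p = 4.51e-06, 7.96e-05 and 0.000376). Lamc1 passed in the 3-factor line at 1.03 ± 0.15 (limma adjusted p = 0.000553), and lost its call without the second day 1 or first EpiLC array of that line, or the second day 1 or first EpiLC array of the parental line. In the Blimp1 line the call of Fn1 was lost without the second parental array of either stage and with arrays centred on their medians. That of Col5a1 was lost there without the first day 1 or second EpiLC array of the line or the first parental day 1 array. Itga3 lost its call in the 3-factor line without the second day 1 array. The calls of Nid1 in the 3-factor and labelled Prdm14 lines were lost with probe sets averaged (1.45 and 1.16). Those of Col5a1 in the 3-factor and Blimp1 lines were lost in the same way. So were those of Itga4 and Lamc1 in the 3-factor line, Itga6 in the line labelled Prdm14 (−0.98) and Fn1 in the Blimp1 line. Itga4 also lost its call with only the arrays compared.

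**Figure D5:**
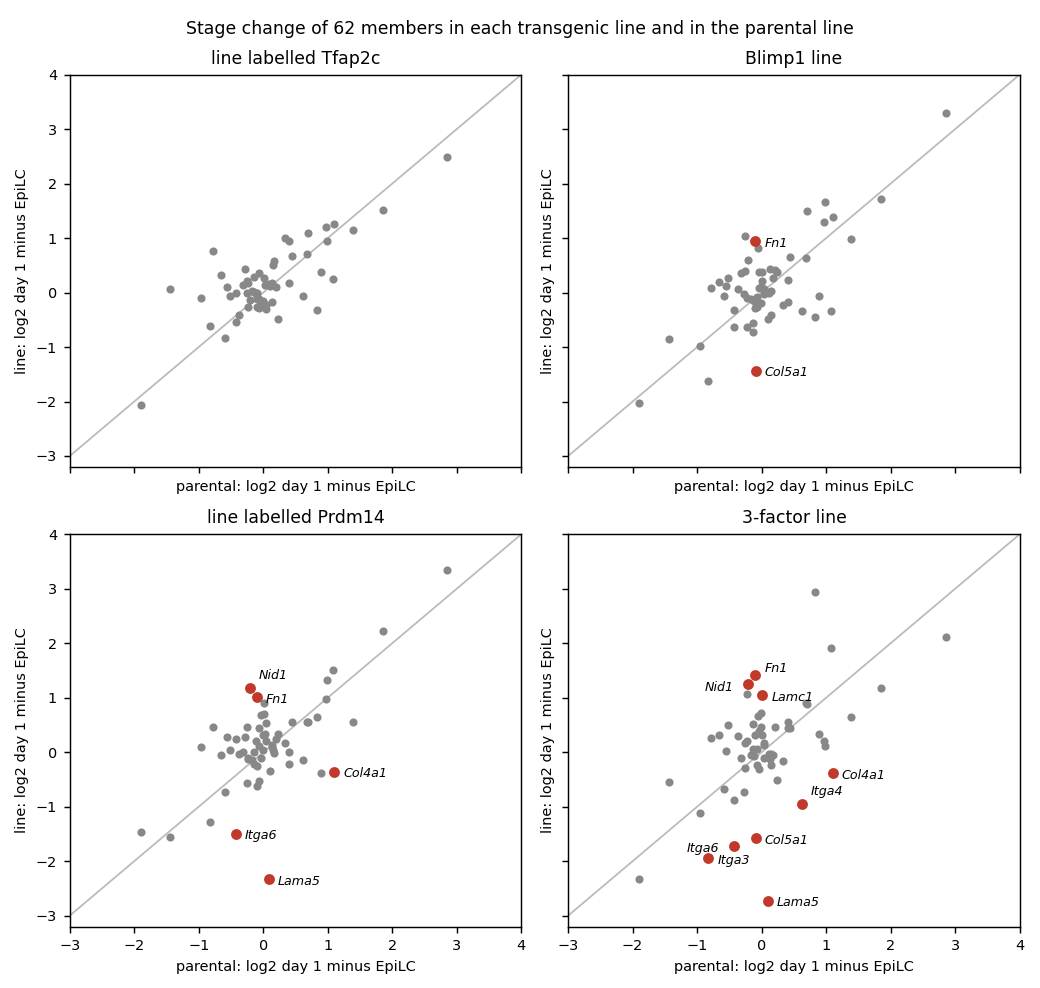
Stage change (log2, day 1 minus EpiLC) of the 62 tested members in each transgenic line (vertical axis) against the parental line (horizontal axis), with the line of equality; named red points are members whose stage change differed from the parental one by the call rule. Lama5 lies farthest below the line in the labelled Prdm14 and 3-factor panels, and no point is named in the panel of the line labelled Tfap2c.

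Differences between factor lines on day 1 were tested directly in 3 comparisons chosen after the values were seen. The 3-factor and labelled Prdm14 lines differed in 1 member of 62, against 1.04% of all genes (0.493% higher, 0.550% lower). Col9a3 was lower by 1.04 in the 3-factor line, a call lost without any 1 of the 4 arrays compared. Between these lines Lama5 differed by −0.52 ± 0.08 (limma adjusted p = 0.00288), Fn1 by −0.03 ± 0.09, Nid1 by −0.23 ± 0.10 and Col4a1 by 0.19 ± 0.14 (adjusted p = 0.902, 0.262 and 0.535). Against the Blimp1 line the 3-factor line had 5 members called (1 higher, 4 lower; 6.46% of all genes were called, 2.51% higher and 3.95% lower). Lama5 was lower by 2.40, Col4a1 by 1.89, Itga6 by 1.28 and Itgb8 by 1.22, and the higher one was Itgb3, at 1.86 ± 0.51, which passed the filter through the 3-factor aggregates alone. The Itgb8 call was lost without the first 3-factor array, and the Itgb3 call without either Blimp1 array or the second 3-factor array. Against the Blimp1 line the line labelled Prdm14 had 4 members called, all lower, where 6.53% of all genes were called (2.50% higher, 4.03% lower): Col4a1 by 2.08, Lama5 by 1.89, Itgb8 by 1.46 and Itgb5 by 1.38.

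Other matrix genes came from 5 lists of processing enzymes, proteases, other matrix proteins, receptors that are not integrins and the integrin adhesion plaque, with 93 genes tested. The lists were chosen with earlier results of these data known, so their shares here and below are a description only. In the parental stage comparison 7 rose and 5 fell (12.9%, against 6.57% of all genes). The Fraser complex matrix genes Frem2 and Fras1 rose by 4.64 and 2.23 and the fibulin gene Efemp1 by 2.70. The protease gene Adam19, the collagen processing gene Pcolce and the adhesion gene Tns3 fell by 1.81, 1.77 and 1.24.

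Relative to parental aggregates, 5 of the 93 rose and 10 fell in the 3-factor line (16.1%, against 6.62% of all genes), and 3 rose and 9 fell in the line labelled Prdm14 (12.9%, against 5.37%). Ddr1, a collagen receptor kinase, fell by 1.94 ± 0.08 and 1.78 ± 0.08 in these lines (limma adjusted p = 4.71e-09 and 1.34e-08). Pxdn, whose product cross-links collagen IV, fell by 2.08 and 1.65, and Cd44, a hyaluronan receptor, by 2.67 and 1.39. Efemp1 fell by 1.94 and 3.96. Adam19 was higher by 2.25 and 1.77, the syndecan gene Sdc4 and the collagen hydroxylase gene P4ha1 by 1.36 and 1.33 in the 3-factor line, and the versican gene Vcan and Tns3 by 1.48 and 1.11 in the line labelled Prdm14. In the Blimp1 line 4 rose and 1 fell (5.38%, against 2.59% of all genes), with Fras1 at 1.77, Plat at 1.67 and Adam19 at 1.36 among those that rose and Fbln5 at −1.23, and in the line labelled Tfap2c 0 of the 93 were called by limma.

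Markers of other cell types were read beside these results. Higher and lower here mean against parental aggregates on day 1, not against a line's own EpiLCs. Those tested were 12 of 14 endoderm, 5 of 10 fibroblast, 6 of 8 trophectoderm, 7 of 9 primitive streak and 6 of 8 blood markers. All epiblast and germ cell markers on the array were tested. Of all genes 6.62%, 5.37% and 2.59% were called in the 3-factor, labelled Prdm14 and Blimp1 lines. Of 14 endoderm markers 6 or 7 were at or above the filter level in each group, their summed linear signal was 255 to 337 over all arrays, and no group mean was at 0. Gata6 stood at 3.71 to 4.26 and Gata4 at 3.31 to 4.12 in all groups, close to the filter level, and Ttr stood at 1.42 to 2.92. Foxa2 was lower in the 3-factor and labelled Prdm14 lines, Amn was lower in the line labelled Prdm14 and Cited1 was higher in the Blimp1 line. Of 10 fibroblast markers Thy1 was lower in the 3-factor and labelled Prdm14 lines, at 4.03 and 4.44 against 7.06 in parental aggregates. Dcn was lower in the 3-factor line, and Acta2 was higher in the Blimp1 line (7.82 against 6.14). Of 8 epiblast markers 4 were lower in the 3-factor line and 3 in the line labelled Prdm14, where Cdh2 was higher. Pou3f1 stood at 11.68 in parental aggregates, 6.8 in the 3-factor line and 8.37 in the line labelled Prdm14. In the Blimp1 line Otx2 was lower (9.18 against 10.68). Of 7 early germ cell markers 5 were higher in the 3-factor, labelled Prdm14 and Blimp1 lines: Dppa3, Ifitm3, Kit, Prdm1 and Tfap2c. The 3-factor line carries transgenes for Prdm1 and Tfap2c and the Blimp1 line 1 for Prdm1. In those lines these genes are therefore no independent markers. Of 8 trophectoderm markers Krt8 and Krt18 were lower in the 3-factor and labelled Prdm14 lines. The list's summed linear signal was 809 to 864 and 906 to 918 there, against 2130 to 2152 in parental aggregates. From EpiLC to day 1 Krt8 went from 7.32 to 7.92 in the 3-factor line, 6.94 to 8.03 in the line labelled Prdm14 and 7.26 to 9.18 in the parental line. Krt18 went from 10.05 to 8.7, from 10.26 to 9.0 and from 10.21 to 10.46 in the same lines. In EpiLCs the list's sums were 1260 to 1559, 1437 to 1657 and 1363 to 1733. Of 9 primitive streak and mesoderm markers Wnt8a was lower in the 3-factor, labelled Prdm14 and Blimp1 lines. Mixl1 was also lower in the 3-factor line and Fgf8 in the Blimp1 line. The sums were 195 to 233 in these lines and 301 to 377 in parental aggregates. From EpiLC to day 1 Fgf8 went from 2.06 to 3.1 in the Blimp1 line and from 2.09 to 5.81 in the parental line. Wnt8a went from 3.74 to 3.78 and from 3.32 to 6.14 in the same lines. Of 8 endothelium and blood markers Pecam1 and Tek were higher in the 3-factor line, Pecam1 in the line labelled Prdm14 and Ptprc and Tek in the Blimp1 line. The sums were 144 to 179 against 118 to 130 in parental aggregates. From EpiLC to day 1 Tek went from 5.8 to 5.74 in the 3-factor line and from 6.32 to 5.8 in the Blimp1 line. In the parental line it went from 5.86 to 4.64. Ptprc went from 4.22 to 3.86 in the Blimp1 line and from 3.66 to 2.45 in the parental line. The part of these markers in the members' differences was not tested.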

How the data were processed

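Total RNA was labelled and hybridised to 20 mouse expression arrays, 10 groups of 2, per the labels. The authors deposited log2 values, from 0.0 to 13.83, in a table of probe sets by arrays, and these were used unaltered. The base was inferred from the range. The normalization step was not given in the sources used here. Of 45101 probe sets 64 are controls, 34945 have 1 gene symbol in the platform annotation, 932 several and 9160 none; only those with 1 were used. Array medians were 4.60 to 4.86.

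A gene was kept when its highest group mean reached the 40th percentile (3.95) and was read at its brightest probe set, which left 14010 genes. Means of the 10 groups were estimated from all arrays in 1 limma 3.58.1 fit (R 4.3.3). It had 10 residual degrees of freedom and a prior of 1.79. The 17 comparisons of the design and 3 added later are contrasts of that fit, with two-sided p-values adjusted by Benjamini-Hochberg over all genes. The call rule is that given with the results. Both arrays of a group are biological duplicates per the series' design text, which names no separate cultures, so p-values measure the spread between these arrays. In data simulated on 14010 genes, 98% of genes changed by 2 on the log2 scale were recovered in the comparison of the 3-factor and parental lines on day 1, and 84% of those changed by 1.5.

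Named members are the called ones and a fixed set of basement membrane and integrin genes; other matrix genes are the called ones among the 3 largest in each direction per comparison. Members, lists and rules were chosen with earlier results of these data known. Alternatives were the filter, averaging probe sets, median centring, quantile normalization, treat, fitting only the arrays compared, a replicate block and leaving out each array. Symbols were matched to RefSeq (GRCm38.p6) for promoter windows.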

Additional observations from a re-analysis of the deposited data

Results flagged for a closer look

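Genes are listed here because their change from EpiLC to day 1 differed from that of the parental line by the interaction term of the limma fit, with an adjusted p under 0.05 and a log2 difference of at least 1. In the 3-factor line these were Lama5 at −2.81, Itga4 at −1.57, Col5a1 at −1.50, Col4a1 at −1.49, Itga6 at −1.30 and Itga3 at −1.11, with Fn1 at 1.50, Nid1 at 1.46 and Lamc1 at 1.03. In the line labelled Prdm14 they were Lama5 at −2.41, Col4a1 at −1.46, Itga6 at −1.07, Nid1 at 1.39 and Fn1 at 1.11. In the Blimp1 line they were Col5a1 at −1.35 and Fn1 at 1.04. All of these comparisons use the same 4 parental arrays. The difference of Itga4 ends below the filter level, and its call was lost with probe sets averaged and with only the arrays compared. That of Itga3 is not borne by its dim probe sets. Those of Col5a1 rest on its brightest probe set and lost their calls with probe sets averaged. The calls of Nid1, of Lamc1, of Itga6 in the line labelled Prdm14 and of Fn1 in the Blimp1 line were lost in the same way. With 2 arrays in a group, no test for single outlying arrays was made.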

How the results depend on the processing

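Of 84 member and comparison pairs called, 41 kept direction and call under every alternative. For members with 1 probe set, such as Itgb8, averaging probe sets could not alter the log2 change. Over 1148 values under alternatives, 1033 kept both, 113 kept the direction but lost the call and 2 reversed. Both reversals were Itga3 in the 3-factor line when all probe sets were averaged, at 0.34 on day 1 and 0.17 for the stage change, which brings in 2 dim probe sets.

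Averaging all probe sets of a gene lowered the counts of members called to 3 (parental stage), 6 (3-factor stage), 4 (labelled Prdm14 stage), 5 (3-factor on day 1), 4, 0 and 3 (stage change of the 3-factor, Blimp1 and labelled Prdm14 lines) and 0 (3-factor against Prdm14). The cause was not tested. In the parental stage comparison Col26a1, Col4a1, Col9a3 and Lama3 lost their calls and Itgb8, with 1 probe set, kept its call. The 3 members there thus include some not called in the main fit. The Blimp1 line on day 1, with 0 members called, had 1 with no filter (Col4a4), 1 with probe sets averaged (Fn1), 1 with arrays centred on their medians and 1 with quantile normalization (Col5a1 in both), and 1 with treat (Fn1). Its stage change had 1 with centring and 1 with treat, and the comparison of the 3-factor and labelled Prdm14 lines had 0 with centring, with treat and with only the arrays compared.

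Leaving out 1 array gave 4 to 7 members in the parental stage comparison, 12 to 13 (3-factor), 7 to 11 (Blimp1), 8 to 9 (labelled Prdm14) and 6 (line labelled Tfap2c). On day 1 it gave 9 to 11 (3-factor), 5 to 6 (labelled Prdm14) and 1 to 3 (Blimp1); the Blimp1 count was 3 without its first array, 1 without its second and 2 without either parental array. For the stage change it gave 8 to 11 (3-factor), 5 to 6 (labelled Prdm14) and 1 to 2 (Blimp1), with 1 without the first Blimp1 day 1 array, the second Blimp1 EpiLC array or either parental day 1 array. The comparison of the 3-factor and labelled Prdm14 lines gave 0 to 1, with 0 without either array of the line labelled Prdm14. A lone array was taken to vary like the other groups.

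Same-numbered arrays were not taken as pairs, since their deviations correlated at −0.065 to 0.196 over 45 pairs of groups, 6 of them over 0.1. These 6 include all pairs among the day 1 groups of the Blimp1 and labelled Prdm14 lines and the line labelled Tfap2c (0.14, 0.163 and 0.196), and whether those groups share a batch was not tested. With a replicate block the counts were 5, 12, 10, 10 and 7 for the stage comparisons, 9, 0, 5 and 0 on day 1 and 9, 2, 5 and 0 for the stage change, in the order of lines parental, 3-factor, Blimp1, labelled Prdm14 and labelled Tfap2c, and no count changed. Centring moved the median of all genes to −0.10 in the stage change of the Blimp1 line and to 0.10 in the stage comparison of the line labelled Tfap2c. Members near the filter level have the least certain size.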
